A study of Saccharomyces cerevisiae with 4 samples.

Results

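The proteins of the large (60S) subunit of the cytosolic ribosome of budding yeast, Saccharomyces cerevisiae, are encoded by the RPL genes and by the RPP genes of the ribosomal stalk. The genes described here were taken by symbol: RPL followed by digits and an optional A or B, and RPP0, RPP1A, RPP1B, RPP2A and RPP2B. This gave 81 of the 6256 genes with a probe on the array, and 80 of the 81 had enough signal to be tested. The gene not tested was RPL41A, which encodes a copy of the very short peptide Rpl41.

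The large subunit holds the peptidyl transferase centre, where amino acids are joined, the tunnel through which the new chain leaves, and the stalk, which recruits the elongation factors. Most of its proteins are encoded by a pair of genes, A and B, left by an ancient genome duplication, whose products are identical or nearly so. Ribosomal protein genes are among the most highly transcribed genes of growing yeast and are controlled together, through Rap1, Fhl1 and Ifh1 at their promoters and through the TORC1 and protein kinase A pathways that report nutrient supply.

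The series set a parental strain, BY4741, beside a mutant, DampERG12, with a DAmP allele of ERG12, an allele whose disrupted 3' untranslated region destabilises the transcript. Mevalonate kinase, the product of ERG12, acts in isoprenoid and sterol synthesis, and the labels give the mutant 10% of the parental activity. Cells were compared in synthetic medium with glucose or with glycerol, each at 20 g/L. Each of 4 comparisons had 2 arrays, described as biological duplicates. The response to glycerol, against glucose, was measured within each strain, and the mutant was set against the parental strain on each carbon source. The condition named first always carried Cy5 and the other Cy3, and with no dye swap a probe's dye bias stays in its ratio. The labels differ on what preceded RNA extraction: by the series design it was a shift to fresh medium for 1 h, by the growth protocol it was growth to a set density, and by the treatment protocol it was a stay in rich acid medium. These histories cannot be told apart here. All 8 arrays lay on 1 slide with each comparison in its own column, so effects of column cannot be told apart from those of the comparison. Array 1 and array 2 name the slide rows.

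Of the markers of the strain, LEU2 was above background in 0 of 16 channels, and URA3 in 8 of 8 mutant channels and 3 of 8 parental ones. MET17, which BY4741 lacks, and SAG1, a gene of the opposite mating type, were above background in all 16 channels, whereas BAR1, the a-cell gene for a protease that degrades the opposite pheromone, was in 0. Of the other mating-type genes, the a-cell genes STE6 and MFA1 were above background in 8 and 7 of 8 parental channels and in 8 and 6 of 8 mutant ones. The a-cell genes STE2 and MFA2 were so in 3 and 2 parental and 3 and 0 mutant channels, and the alpha-cell genes MF(ALPHA)1, MF(ALPHA)2 and STE3 in 1, 0 and 2 parental and 2, 0 and 2 mutant ones. ERG12 was too dim to be tested and was above background in 5 of 8 parental and 1 of 8 mutant channels. Between 4917 and 5499 genes per channel were above background, and 0 gene spots were saturated. The median signal of the large-subunit genes was 812.5 to 11808.2 scanner units per channel, against 133.25 to 742.75 for all genes, so most of them were bright probes. Values are log2 ratios of Cy5 over Cy3 after loess normalization, which sets the average gene near 0, so each value is relative to the average gene. In such bulk RNA, a smaller number of cells with a transcript and less of it per cell cannot be told apart. Adjusted p-values are Benjamini-Hochberg values of limma over 5343 tested genes, and a gene was called at an adjusted p under 0.05. Precision is limited by having only 2 arrays for each ratio.

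In glycerol the transcripts of nearly the whole subunit were lower in the parental strain. Of the 80 genes tested, 78 fell and 0 rose (30.5% of all tested genes fell and 31.4% rose, 62% in all). Their median log2 ratio was -1.52, a 2.87-fold lower level, with medians of -1.71 on array 1 and -1.36 on array 2. The median of all tested genes was -0.01. Of the 77 genes that were above background in all 16 channels, 75 fell. All 80 genes had a mean below 0, and 79 of them had the same sign on both arrays. RPL15B, whose protein lies near the centre of the subunit, and RPL41B were not called.

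Among the lowest ratios was that of RPL1B, for the mobile L1 stalk at the exit side, at -2.13 on array 1 and -2.54 on array 2, a mean of -2.34 ± 0.14 (SE, n = 2 arrays, limma adjusted p = 6.19e-06) and a 5.06-fold lower level. RPL8A had -2.36 and -2.26, and its paralog RPL8B had -2.14 and -2.42. RPL2B, which encodes a protein needed for peptide bond formation, had -2.33 and -2.28. RPL3, which encodes a protein that reaches into the peptidyl transferase centre and has no second copy, had -2.41 and -2.19. These 5 genes had means from -2.34 to -2.28, and all their values lay below the median of the group on the same array.

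The 6 highest fitted ratios belonged to RPL15B, RPL41B, RPL7B, RPL42A, RPL38 and RPL21A. RPL15B was at -0.38 on array 1 and 0.13 on array 2, with a mean of -0.13 ± 0.13 (SE, n = 2, adjusted p = 0.444), and so lay on both sides of 0. RPL41B was at -0.35 and -0.01, with a mean of -0.18 ± 0.11 (SE, n = 2, adjusted p = 0.178). RPL7B was called, with -0.66 and -0.23, but its glycerol channel was above background on neither array, and its fold is a bound of at least 1.33-fold lower. RPL21A was likewise above background only in glucose, with a fall of at least 1.65-fold. In this comparison both genes had a measured signal on the glucose side only, so their true places in this order are not known. Both bounds take the bright channel against the higher of the lowest detected signal and the gene's own signal. RPL42A (-0.97 and -0.31) and RPL38 (-1.04 and -0.38) fell, but lost their calls with array 2 alone (adjusted p = 0.429 and 0.154), as did RPL7B (adjusted p = 0.299). Array 2 was higher than array 1 for RPL15B, RPL41B, RPL42A and RPL38. With array 2 alone 65 genes fell, and with array 1 alone 78 did.

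**Figure D1:**
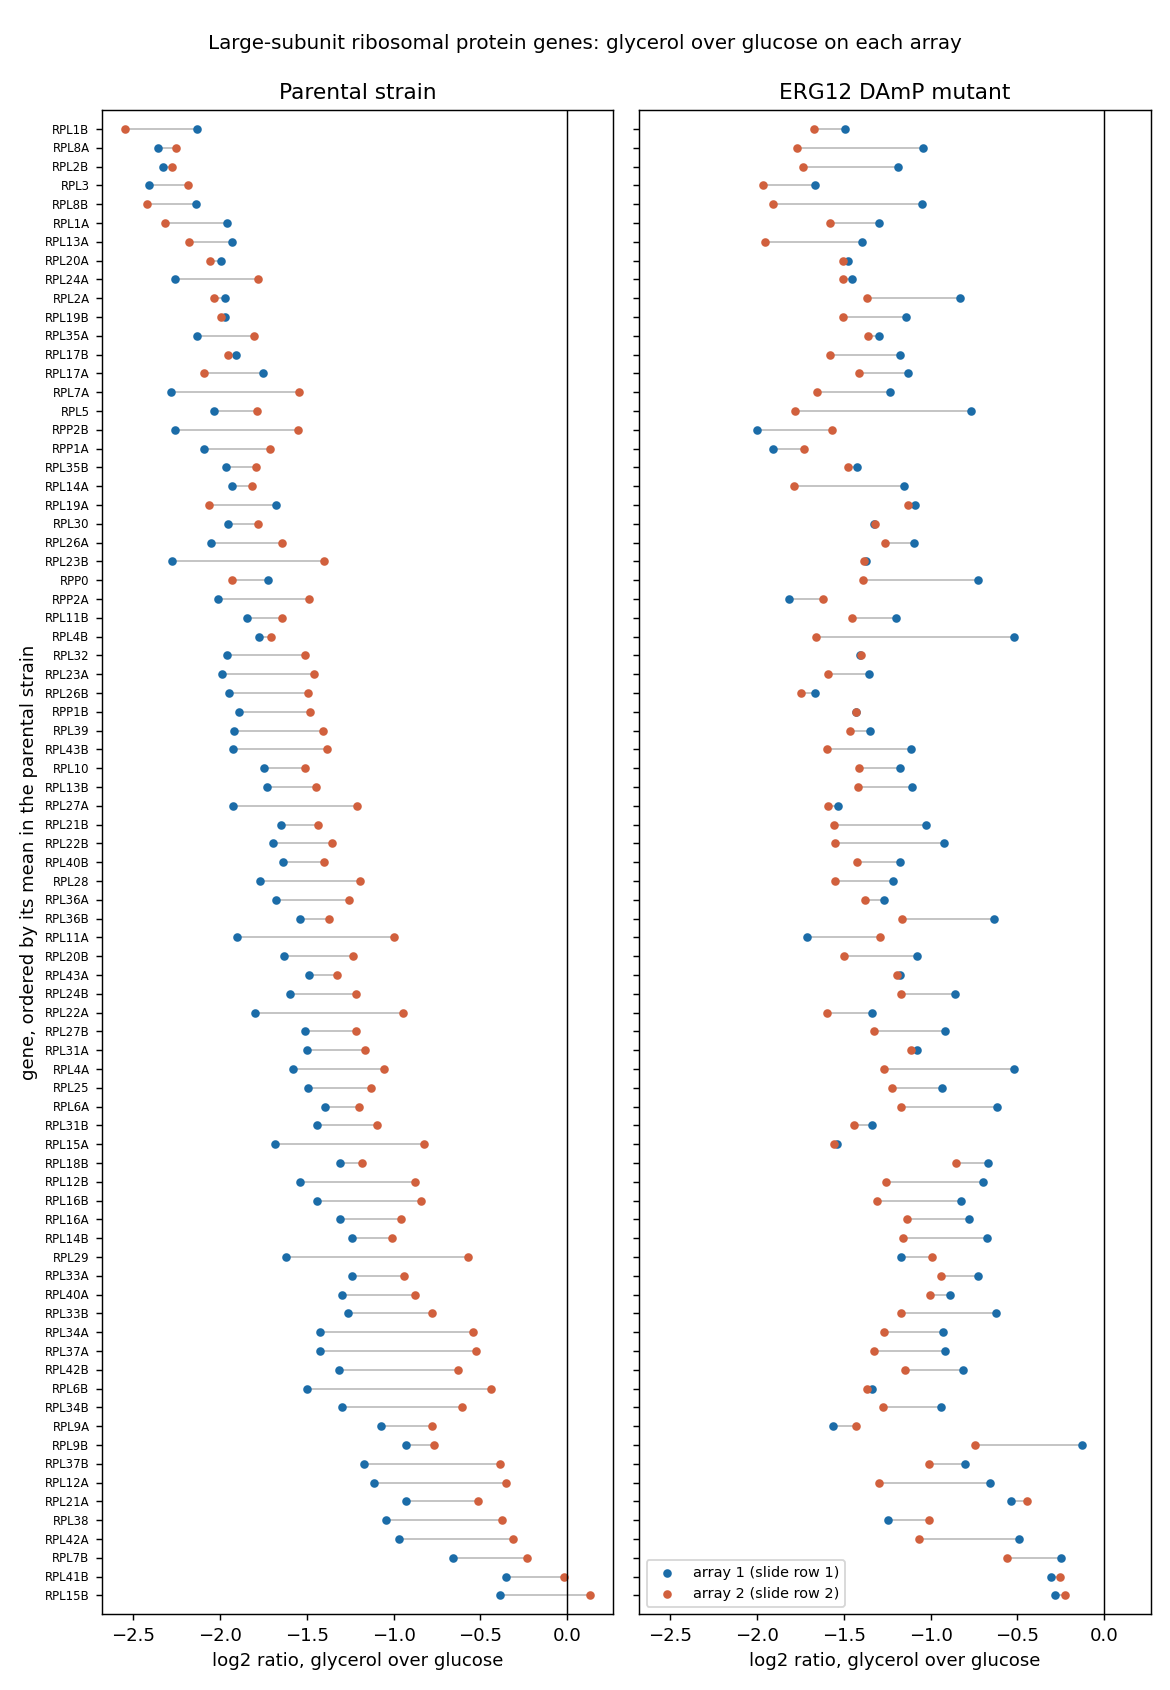
Log2 ratio of glycerol over glucose (horizontal axis) for 79 of the 80 tested large-subunit genes (vertical axis, ordered by the parental mean), with array 1 in blue and array 2 in orange and a line joining them, for the parental strain (left) and the mutant (right). All points but array 2 of RPL15B in the parental strain (0.13) lie below 0, and RPL1B has the lowest value shown (-2.54).

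The 5 stalk genes fell together in the parental strain. RPP0, which encodes the base of the stalk, had -1.73 and -1.93, with a mean of -1.83 ± 0.20 (SE, n = 2, adjusted p = 0.000108). RPP1A, for an acidic protein that binds elongation factors, had -2.09 and -1.71, and RPP1B had -1.89 and -1.48. RPP2A had -2.01 and -1.49, and RPP2B, with the lowest stalk mean, had -2.26 and -1.55, a mean of -1.91 ± 0.18 (SE, n = 2). The 5 means lay between -1.91 and -1.69 and their median was -1.83.

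All 11 genes with no A or B copy, RPP0 among them, also fell, with a median of -1.66. RPL5, which binds the 5S rRNA, had -2.03 and -1.78, with a mean of -1.91 ± 0.26 (SE, n = 2). RPL30, whose protein represses the splicing of its own transcript, had -1.95 and -1.78, and its SE of 0.10 was the smallest of the 80 genes. RPL10, for a protein that joins late in assembly and is needed for subunit joining, had -1.74 and -1.51. These 3 genes were below the median of the group on both arrays. RPL39, for a small protein of the exit tunnel, had -1.92 and -1.41, and RPL25, for a protein at the tunnel exit where targeting factors dock, had -1.49 and -1.13. RPL32 had -1.96 and -1.51, and RPL28, in which cycloheximide resistance mutations arise, had -1.77 and -1.19. RPL29 had the widest gap between arrays of these genes, at -1.62 and -0.57, with a mean of -1.09 ± 0.21 (SE, n = 2).

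The mutant gave the same direction. In glycerol 77 of the 80 genes fell and 0 rose (21.9% of all tested genes fell and 24.7% rose, 46.6% in all), with a median of -1.29, a 2.45-fold lower level, and array medians of -1.12 and -1.40. Of the 77 genes above background in all 16 channels, 74 fell. All 80 genes were below 0 on both arrays. RPL15B (-0.25 ± 0.13, SE, n = 2, adjusted p = 0.157), RPL41B (-0.28 ± 0.11, adjusted p = 0.0672) and RPL9B (-0.44 ± 0.18, adjusted p = 0.084) were not called. The spread of means over genes was smaller than in the parental strain, with an SD between genes of 0.34 against 0.52.

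Stalk genes held 3 of the 6 lowest places in the mutant. RPP1A was at -1.91 and -1.73, a mean of -1.82 ± 0.12 (SE, n = 2, adjusted p = 2.13e-05) and a 3.53-fold lower level. RPP2B was at -2.00 and -1.57, and RPP2A at -1.81 and -1.62. RPP0 stood apart from the other stalk genes with -0.73 on array 1 and -1.39 on array 2, a mean of -1.06 ± 0.20 (SE, n = 2), and RPP1B was at -1.43 on both arrays. RPL3 (-1.66 and -1.97) and RPL26B (-1.67 and -1.74) were also among the 6 lowest, RPL3 in both strains. At the other end stood RPL15B, RPL41B, RPL7B, RPL9B, RPL21A and RPL18B, and RPL18B fell with -0.67 and -0.85.

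All 11 genes without a paralog letter fell in the mutant too, with a median of -1.29. RPL39 was at -1.35 and -1.46, RPL32 at -1.41 and -1.40, and RPL30 at -1.32 on both arrays. RPL28 was at -1.22 and -1.55, RPL10 at -1.18 and -1.41, RPL38 at -1.24 and -1.01, RPL29 at -1.17 and -0.99, and RPL25 at -0.93 and -1.23. The arrays lay closer together for each of these 8 genes than for RPL5, with -0.77 on array 1 and -1.78 on array 2. RPL4A and RPL4B, whose protein sends a loop into the exit tunnel, showed gaps of this kind (-0.52 and -1.27 for RPL4A, -0.52 and -1.66 for RPL4B). With array 1 alone 63 genes fell, RPL5 (adjusted p = 0.0637), RPP0 (adjusted p = 0.0517), RPL21A (adjusted p = 0.0597) and RPL7B (adjusted p = 0.373) not among them. With array 2 alone 76 fell, with RPL9B called (adjusted p = 0.0322) and RPL21A and RPL7B not (adjusted p = 0.0943 and 0.056).

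The 56 genes of the small subunit (RPS) fell in like numbers, 56 in the parental strain (median -1.35) and 53 in the mutant (median -1.17). The 30 tested genes of the large subunit of the mitochondrial ribosome (MRPL) went the other way in the parental strain, where 18 rose and 0 fell (median 0.53), while in the mutant 9 rose and 1 fell (median 0.09). Of all tested genes 31.4% and 24.7% rose in the 2 strains, and 30.5% and 21.9% fell. In the mutant the share of MRPL genes that rose is thus near that of all genes, while the share that fell is smaller. Of 62 tested genes for 60S assembly and export factors, 41 fell and 4 rose in the parental strain (median -0.60), and 42 fell and 1 rose in the mutant (median -0.64). The lowest of them in the parental strain were URB2, an early assembly factor (-1.52 ± 0.13, SE, n = 2, adjusted p = 3.68e-05), MTR4, a helicase of the nuclear exosome (-1.30 ± 0.20), and ERB1, an early assembly factor (-1.25 ± 0.18). In the mutant they were REA1, the ATPase that strips assembly factors (-1.53 ± 0.15), the GTPase gene NOG1 (-1.27 ± 0.31), and ERB1 (-1.07 ± 0.18). RSA1, an assembly factor of the nucleoplasm, rose in both, by 0.99 ± 0.10 and 0.55 ± 0.10. LOC1 (0.51 ± 0.18) and NPA3 (0.37 ± 0.11) also rose in the parental strain, and in the mutant LOC1 and the export receptor gene MEX67 were both at -0.03. LOC1 lost its parental call without either array (adjusted p = 0.0522 and 0.359), NPA3 without array 2 (adjusted p = 0.192), and NOG1 its mutant call without array 2 (adjusted p = 0.144).

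The next list held 20 genes for enzymes that modify ribosomal proteins and for chaperones of these proteins or at the ribosome. Of these, 16 fell in the parental strain and 12 in the mutant, and 0 rose in either. Of all tested genes 30.5% and 21.9% fell, and 31.4% and 24.7% rose. SSB1 and SSB2, Hsp70 chaperones bound to the ribosome, fell by 2.92 and 2.79 (log2) in the parental strain and by 1.87 and 1.64 in the mutant. SQT1, a chaperone of Rpl10, was at -1.12 ± 0.20 in the parental strain, and SYO1, which carries Rpl5 and Rpl11 into the nucleus, was at -1.11 ± 0.19 in the mutant. The 3 highest in both strains were BTT1 (-0.14 and 0.14), RKM5 (-0.12 and 0.22) and EGD1 (-0.06 and -0.07), and these were not called.

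Of 25 regulators of ribosomal protein genes 7 fell and 6 rose in the parental strain, and 5 fell and 4 rose in the mutant. As 30.5% of all tested genes fell and 31.4% rose in the parental strain, and 21.9% and 24.7% in the mutant, these counts do not set the list apart. UTP22, which joins Ifh1 in a complex, was at -0.84 ± 0.16 and -0.82 ± 0.16 in the 2 strains, LST8, a TORC1 and TORC2 subunit, at -0.79 ± 0.11 and -0.61 ± 0.11, and TOD6, a repressor of ribosome biogenesis genes, at -0.63 ± 0.17 and -0.77 ± 0.17. STB3, another repressor, rose by 1.49 ± 0.19 and 0.79 ± 0.19, and RIM15, a kinase of the quiescence programme, by 1.01 ± 0.11 and 0.48 ± 0.11. MSN2, a stress activator, rose by 0.56 ± 0.13 and 0.98 ± 0.13. HMO1, an HMG-box protein bound at many ribosomal protein promoters, rose in the parental strain (0.67 and 0.60, mean 0.64 ± 0.10, adjusted p = 0.000716) and was at -0.08 ± 0.10 in the mutant (adjusted p = 0.516). Calls lost with 1 array left out were those of TOD6 and UTP22 in both strains, and of LST8, STB3 and RIM15 in the mutant (adjusted p from 0.0519 to 0.124). FHL1 was too dim to be tested.

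**Figure D2:**
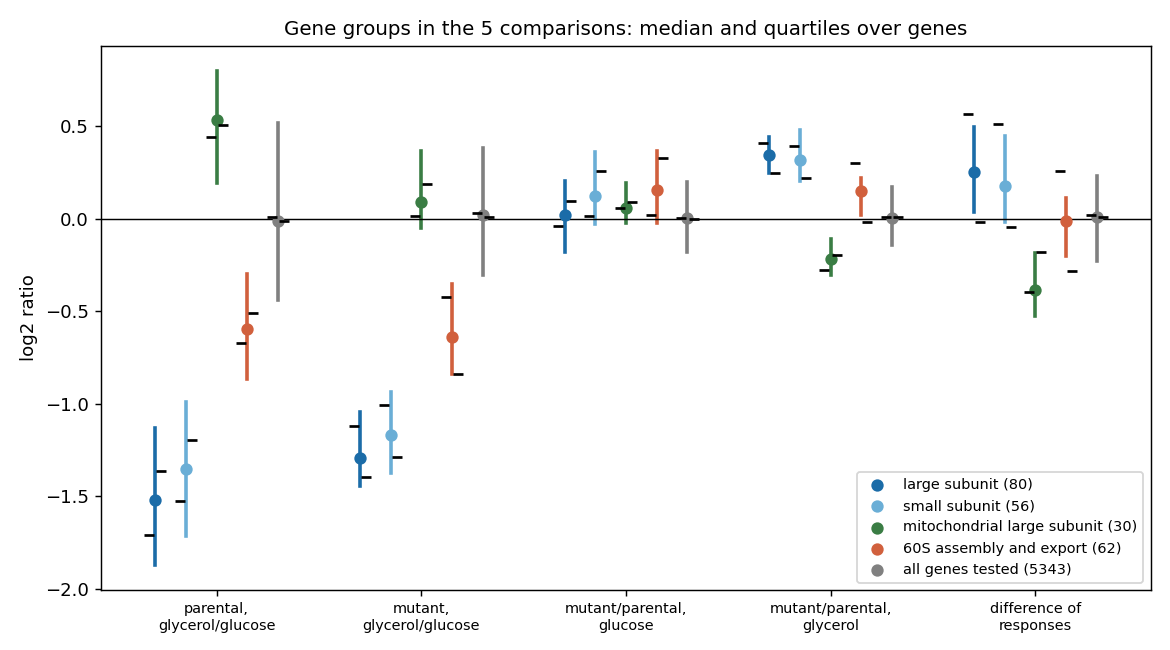
Median (point) and quartiles (line) of the log2 ratio over the genes of each group in the 4 comparisons and in the difference of the glycerol responses; black dashes are the medians on array 1 (left) and array 2 (right). The 80 large-subunit genes have medians of -1.52 and -1.29 in the glycerol responses and 0.02 and 0.35 between the strains in glucose and in glycerol. In the difference, where arrays were paired by slide row, a pairing the labels do not give, their dashes lie apart at 0.57 and -0.02.

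The scale of the fall depended on the reference. With ribosomal protein spots given no weight in the loess, the parental median was -1.82, and with each array centred on its median it was -1.98. Agilent's own processed signals gave -1.78 and the authors' deposited table gave -1.75, with the sign of that column turned to that of the scanner ratios (correlation across genes -0.995). Spike-in probes, whose mixing ratios are not in the files, gave -3.73 when their median was taken as 0 and -2.45 when each was set against its own mean over the arrays, a definition chosen after seeing the data. The latter moved the median of all genes to -0.94. In the mutant these settings gave medians from -2.72 to -1.11. In each of these settings that was fitted, at least 72 genes fell in each strain. With the spike-in probes taken as 0, 93.7% and 88.2% of all tested genes fell in the parental strain and the mutant. In the relative spike-in setting 67.8% and 7.07% did.

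Across the 80 genes the parental and the mutant response correlated at r = 0.77, beside r = 0.93 over all tested genes. These points share arrays, dyes and probes within a strain and are not independent replicates. The median of the mutant minus the parental response was 0.25, and 64 of the 80 genes were above 0. The difference passed the test in 1 of the 80 genes, in the direction of a higher value in the mutant (0.861% of all tested genes were higher and 1.01% lower, 1.87% in all), and at an unadjusted p under 0.05 in 22 genes that were higher and 1 that was lower (9.92% and 11.3% of all tested genes). In limma 0 genes of the group were called with Agilent's processed signals, with the slide row as a block, or when only the 4 arrays compared were fitted. In these settings 20, 43 and 11 of all 5343 tested genes were called, so these counts do not set the group apart.

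RPL8A, RPL2A, RPL2B, RPL8B and RPP0 were among the 6 genes with the largest differences and were not called. RPL8A differed by 0.90 ± 0.24 (SE, adjusted p = 0.088), RPL2A by 0.90 ± 0.19 (adjusted p = 0.0593) and RPL2B by 0.84 ± 0.19 (adjusted p = 0.0616). RPL8B differed by 0.80 ± 0.30 and RPP0 by 0.77 ± 0.28 (adjusted p = 0.179 and 0.167). For RPL2A, RPL2B, RPL8A, RPL8B and RPP0 both mutant values lay above both parental ones. Paired by slide row, a pairing the labels do not give, the arrays had median differences of 0.57 in row 1 and -0.02 in row 2. With 1 of the 4 arrays left out, the median difference was 0.10 to 0.46. A response then rests on 1 array, so counts of called genes were not read there. With array median centring the median was 0.69 and 9 genes were called higher (4.49% of all tested genes were), but the median of all genes also moved, to 0.29. With the spike-in probes taken as 0 it was 1.04 and 19 genes were called higher, and with the relative spike-in setting 1.35 and 76. In these 2 settings the median of all genes was 0.79 and 1.11, and 6.92% and 78.3% of all tested genes were called higher. HMO1, from the list of regulators, was also called in this contrast (-0.72 ± 0.14, adjusted p = 0.0471). Its call was lost with median centring (adjusted p = 0.105) and with processed signals (adjusted p = 0.0501). It was also lost without any 1 of the 4 arrays. A response then rests on 1 array, so that loss cannot be read as a trait of HMO1. HMO1 is named for this contrast after its values were seen.

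**Figure D3:**
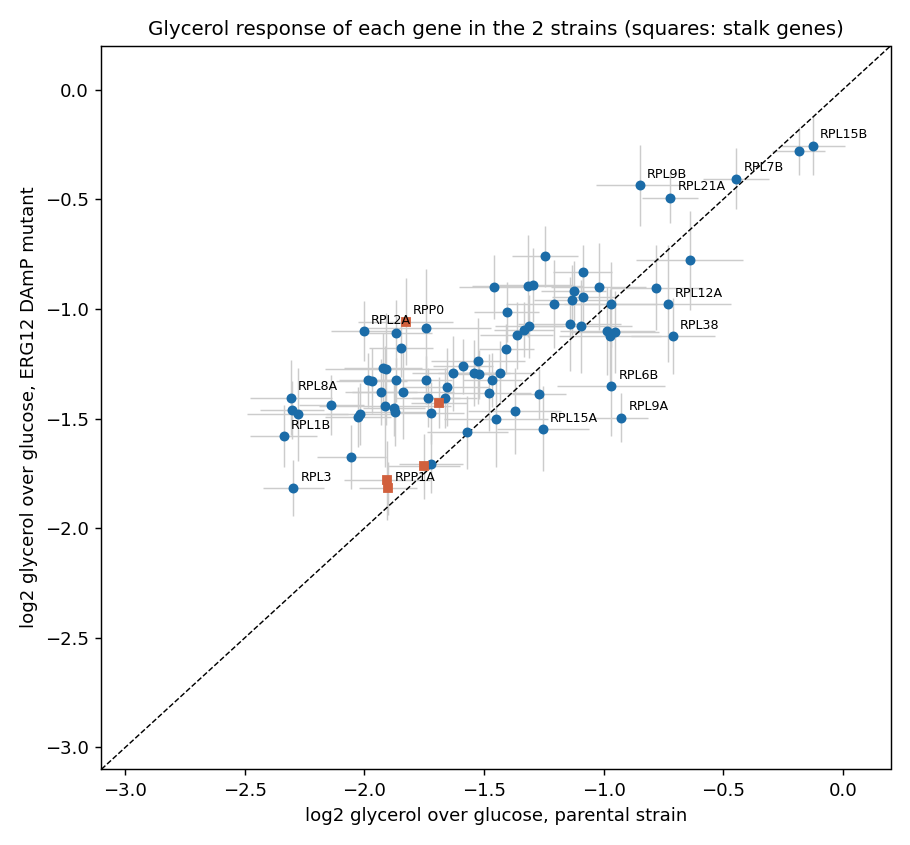
Log2 ratio of glycerol over glucose of 79 of the 80 genes in the parental strain (horizontal axis) and in the mutant (vertical axis), with standard errors (grey) and the line of equal response (dashed); stalk genes are orange squares. RPL8A (-2.31 and -1.40) lies above the line, and RPL9A (-0.93 and -1.50) lies farthest below it.

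Between the strains in glucose the large-subunit genes showed little shift as a group, with a median of 0.02 (array medians -0.04 and 0.10), 37 genes below 0 and 43 above. In limma 2 genes were higher in the mutant and 0 lower (3.5% of all tested genes were higher and 3.54% lower, 7.04% in all). At an unadjusted p under 0.05, 8 were higher and 6 lower, beside 13.6% of all tested genes in each direction. RPL15A was at 0.74 and 1.20, a mean of 0.97 ± 0.19 (SE, n = 2, adjusted p = 0.0272) and a 1.96-fold higher level. RPL3 was at 0.36 and 0.69, a mean of 0.53 ± 0.13 (SE, n = 2, adjusted p = 0.046). Both were above 0 on both arrays. RPL10 (0.65), RPL12A (0.62) and RPL6B (0.58) lay above RPL3, and RPL38 (0.48) lay below it. These genes completed the 6 highest without being called. RPL12A belongs to the base of the stalk. The lowest was RPL7A at -0.07 and -1.24, with a mean of -0.66 ± 0.28 (SE, n = 2, adjusted p = 0.172), and among the 6 lowest were RPL23B (-0.51), RPL18B (-0.46), RPL26A (-0.38) and RPL29 (-0.37), of which 0 were called. Each of these 11 genes had the same sign on both arrays. The calls of RPL15A and RPL3 were lost with Agilent's processed signals and with the relative spike-in setting, in which 266 and 76 of all tested genes were called. They were also lost with either array left out. The comparison then rests on 1 array, so that loss cannot be read as a trait of these genes. With the spike-in probes taken as 0, 79 genes were called lower, as were 99.2% of all tested genes. The stalk genes had a median of -0.17, with 0 called. Of the 62 assembly and export factors 3 were higher in the mutant, the GTPase gene NOG2 (1.14 ± 0.26, SE, n = 2, adjusted p = 0.0389), NSA2 (0.76 ± 0.15) and BUD20 (0.60 ± 0.11).

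Between the strains in glycerol 78 of the 80 genes were above 0, with a median of 0.35 and array medians of 0.41 and 0.25. RPL2A and RPL3 were higher in the mutant and 0 genes were lower (3.24% of all tested genes were higher and 0.88% lower, 4.12% in all). At an unadjusted p under 0.05, 33 were higher and 0 lower (12.4% and 7.88% of all tested genes). RPL2A was at 0.72 and 0.58, a mean of 0.65 ± 0.14 (SE, n = 2, adjusted p = 0.0383) and a 1.57-fold higher level. RPL3 was at 0.61 and 0.59, a mean of 0.60 ± 0.13 (SE, n = 2, adjusted p = 0.0392) and a 1.52-fold higher level. RPL4B (0.75), RPL8A (0.72), RPL4A (0.60) and RPL24A (0.60), for a protein that joins in the cytoplasm, completed the 6 highest without being called. The 6 lowest were RPL9A at -0.24, RPL7B at -0.04, RPL38 at 0.04, RPL41B at 0.05, RPL22A at 0.07 and RPL21A at 0.08, and 0 of these were called. RPL9A was below 0 on both arrays, whereas RPL7B, RPL38 and RPL22A lay on both sides of 0. RPL7B was above background on 1 array in the mutant channel and 0 in the parental one, and RPL21A on 2 and 1. The places of RPL7B and RPL21A in this order are thus not known.

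The order of the genes differed between the arrays of this comparison. Over the 80 genes the 2 arrays correlated at r = 0.04, beside 0.51 over all tested genes, and beside 0.85, 0.67 and 0.75 over the 80 genes for the parental response, the mutant response and the strains in glucose. The small-subunit genes had a median of 0.32 with 3 of 56 higher, and the MRPL genes one of -0.22 with 1 of 30 lower. Of all tested genes 3.24% were higher and 0.88% lower. The calls of RPL2A and RPL3 were lost with array median centring and with Agilent's processed signals, in which 120 and 231 of all tested genes were called. They were also lost with either array left out. The comparison then rests on 1 array, so that loss cannot be read as a trait of these genes. The spike-in probes turned the direction when taken as 0, with a median of -0.45 and 7 genes called lower (68.8% of all tested genes were). In the relative setting the median was 1.16 and 79 genes were called higher, as were 85.7% of all tested genes. The median of all genes was -0.79 and 0.82 in these settings. Both settings move all genes of an array by the same amount. They therefore cannot change the place of the large-subunit genes against the average gene. HMO1 was lower in the mutant in glycerol (-0.55 and -0.50, mean -0.53 ± 0.10, SE, n = 2, adjusted p = 0.0255). This call was lost with median centring (adjusted p = 0.212). It was also lost without array 1 and without array 2, where the comparison rests on 1 array.

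Comparisons that hold the same RNA condition varied in how far their differences between slide rows correlated. Where that condition carried Cy5 in 1 comparison and Cy3 in the other, a shared deviation gives a negative r. The row 1 minus row 2 deviations of the mutant response and of the strains in glycerol, which both contain mutant glycerol RNA, correlated at r = 0.63 over the 80 genes and 0.76 over all tested genes. The mutant response and the strains in glucose hold mutant glucose RNA in opposite dyes, with r = -0.28 over the 80 genes and -0.45 over all. The parental response and the strains in glycerol hold parental glycerol RNA in opposite dyes (-0.16 and -0.25). Parental glucose RNA is in Cy3 in both the parental response and the strains in glucose (-0.12 and 0.14). The strains in glucose and in glycerol share no condition (-0.37 and -0.29). For the parental and the mutant response, which also share no condition, r was 0.31 and -0.06. RPL4A, RPL4B and RPL9B were among the genes higher on array 1 both in the mutant response and between the strains in glycerol. Whether arrays of a row shared RNA extracts was not tested. The p-values measure the spread between these arrays only.

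**Figure D4:**
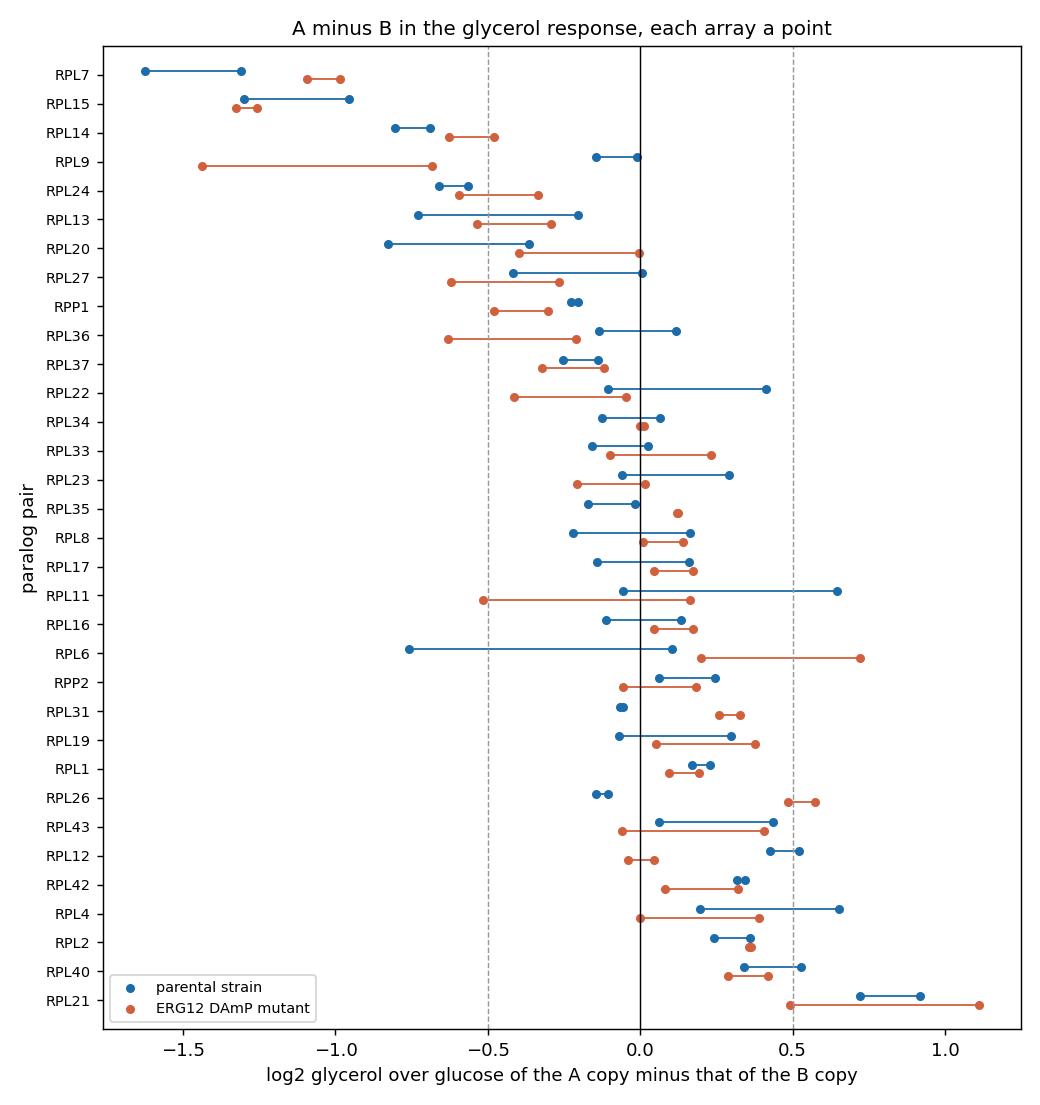
Log2 ratio of glycerol over glucose of the A copy minus that of the B copy (horizontal axis) for 33 of the 34 paralog pairs (vertical axis), with each array a point and a line joining the 2 arrays of a strain; dashed lines mark a difference of 0.5 either way. RPL7, RPL15 and RPL14 lie at -0.48 or lower on all 4 arrays, and RPL21 lies at 0.49 or higher.

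Paralogs were compared in 34 pairs, each A minus B on the same array, so that slide and labelling are shared and the difference is one of 2 ratios, not of 2 levels. A pair was said to differ where the difference was at least 0.5 with the same sign on both arrays, and no test was made. Cross-hybridisation between the copies of a pair was not tested. Of the 34 pairs, 7 differed in the parental response (the A copy lower in 6) and 7 in the mutant response (the A copy lower in 5), and 5 did in both. The copy with the lower ratio was the same in both strains in 24 pairs, and in 15 pairs the sign was the same on all 4 arrays. The median absolute difference was 0.21 and 0.23. Taken by copy, 34 of 34 tested A copies fell in each strain, and 33 of 35 and 32 of 35 B copies did. Of all tested genes 30.5% and 21.9% fell in the parental strain and the mutant. The A copy left out by the filter is RPL41A, which without the filter was not called in either strain, like RPL41B.

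RPL7 and RPL15 were among the pairs that differed most. RPL15A minus RPL15B was -1.30 and -0.96 in the parental strain and -1.26 and -1.33 in the mutant: RPL15A fell by 1.25 and 1.55 (log2) in the 2 strains while RPL15B was not called in either. The sign was the same on all 4 arrays. RPL7A minus RPL7B was -1.63 and -1.31 in the parental strain and -0.99 and -1.09 in the mutant. In the parental strain the fall of RPL7B is a lower bound, so its pair difference is a limit and its place among the pairs is not known. RPL7B was above background in 9 of 16 channels, and with Agilent's processed signals its pair differed by -0.65 and -0.03 in the 2 strains. With no offset in the background correction the RPL7 difference was -1.05 and -0.54. RPL15B was above background in all 16 channels, and the RPL15 difference with processed signals was -1.30 and -1.28.

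RPL21 was the largest pair in which the B copy was lower, with A minus B of 0.72 and 0.92 in the parental strain and 0.49 and 1.11 in the mutant. This direction did not hold: with Agilent's processed signals it was -0.32 and -0.27, and RPL21A was above background in 12 of 16 channels. Its parental fall is also a lower bound, so the RPL21 difference is a limit. RPL14A minus RPL14B was -0.69 and -0.80 in the parental strain and -0.48 and -0.63 in the mutant. RPL24A minus RPL24B was -0.66 and -0.57 in the parental strain and -0.59 and -0.33 in the mutant. RPL13A minus RPL13B was -0.20 and -0.73, then -0.29 and -0.54, below 0 on all 4 arrays.

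The RPL9 pair met the size used for pairs in the mutant and not in the parental strain. RPL9A minus RPL9B was -0.14 and -0.01 in the parental strain and -1.44 and -0.68 in the mutant. Between the strains the same difference was -1.04 and -0.57 in glycerol and -0.01 and -0.14 in glucose. In glycerol RPL9A had a mean of -0.24 and RPL9B one of 0.56. The difference between strains was not tested for the pair. For the copies it was -0.57 ± 0.16 for RPL9A (SE, adjusted p = 0.0988) and 0.41 ± 0.26 for RPL9B (adjusted p = 0.404). RPL26, chosen after its values were seen, also met the size in the mutant and not in the parental strain, with the other sign (0.57 and 0.48, mean 0.53, against -0.10 and -0.15). Between the strains in glucose, RPL15 (0.55), RPL12 (0.53) and RPL11 (0.61) met the size used for pairs, in each case with the A copy higher in the mutant.

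The 4 pairs with the smallest signed mean over both responses, in which opposite signs cancel, were RPL33, RPL23, RPL34 and RPL35. RPL8, chosen after its values were seen, had means as near 0 in each response, at -0.03 and 0.08. RPL34A minus RPL34B was -0.13 and 0.07 in the parental strain and 0.01 and 0.00 in the mutant. RPL33 was at 0.03 and -0.16 and then -0.10 and 0.23, RPL23 at 0.29 and -0.06 and then 0.02 and -0.21, and RPL35 at -0.17 and -0.02 and then 0.13 and 0.12. In RPL33, RPL34 and RPL23 the sign differed between arrays of a strain. Over the 34 pairs the A and B ratios correlated at r = 0.47 in the parental response and -0.05 in the mutant response, while the A minus B differences of the 2 strains correlated at r = 0.77. The pairs share probes and dyes across strains, so a lasting probe effect would enter both.

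Some genes lie side by side on a chromosome, by gene order in the reference assembly R64. RPL24A and RPL30 on chromosome VII are divergent neighbours and were at -2.02 and -1.87 in the parental strain and -1.48 and -1.32 in the mutant. RPL13A and RPP1A on chromosome IV are convergent neighbours and were at -2.05 and -1.90, then -1.68 and -1.82. RPL41A, which was not tested, was above background in 9 of 16 channels with signals of 38.8 to 153 scanner units, and without the filter it was at -0.12 ± 0.10 in the parental strain and -0.18 ± 0.10 in the mutant (SE, n = 2, adjusted p = 0.364 and 0.222). The dimness of RPL41A and RPL41B stands beside their small ratios, and its part in them was not tested.

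**Figure D5:**
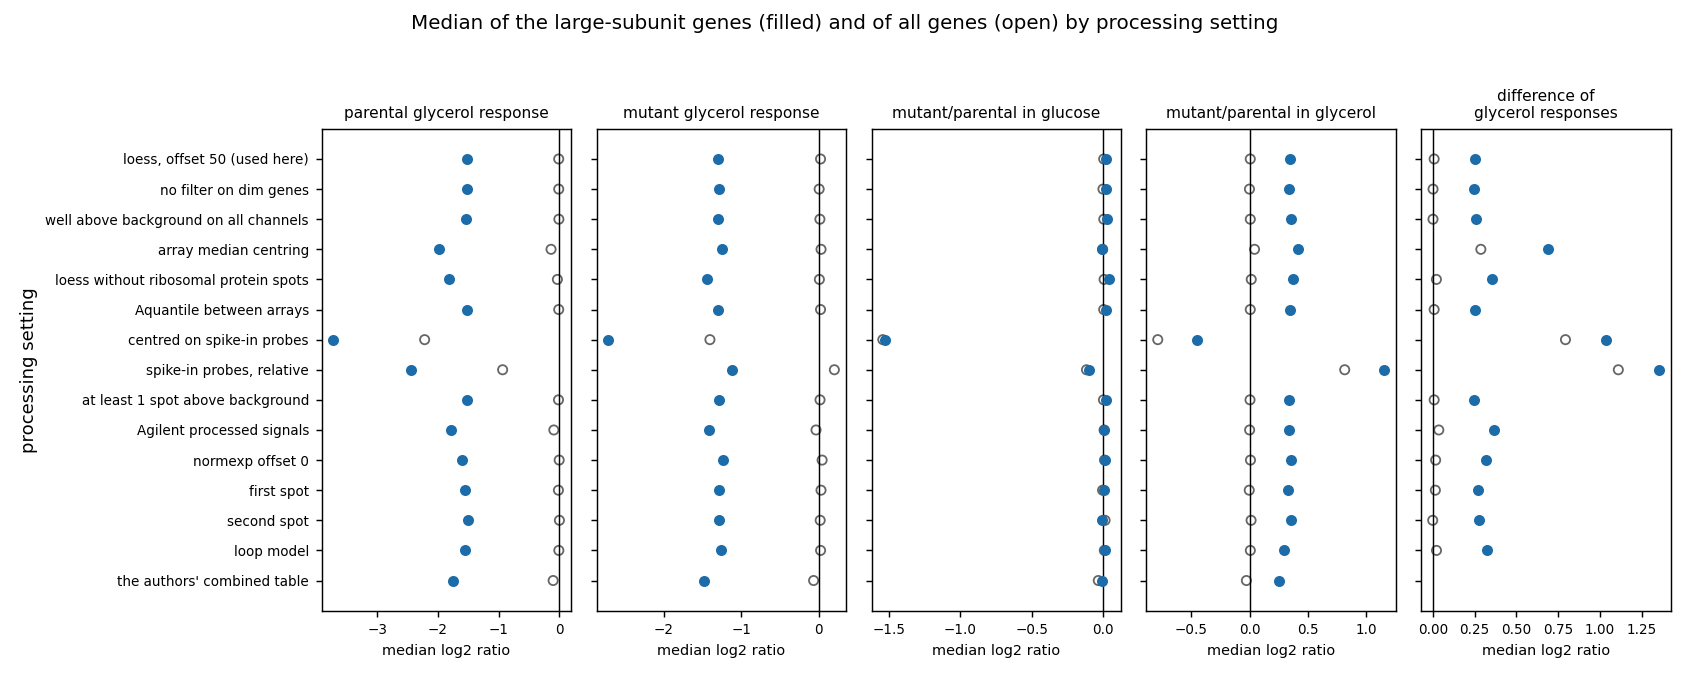
Median log2 ratio of the large-subunit genes (filled) and of all genes tested (open) on the horizontal axes, in each comparison, under each processing setting (vertical axis). The medians of the glycerol responses stay below 0 in every setting (-3.73 to -1.11), while that of the strains in glycerol goes from -0.45 to 1.16 with the 2 spike-in settings.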

How the data were processed

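RNA of 2 strains on 2 carbon sources was hybridised to 8 two-colour arrays. Per the file headers, the deposited scanner files were written by version 10.10.1.1 of Agilent Feature Extraction, and they give a median intensity for each spot and its background. They also hold a log10 ratio of processed signals per the file headers, used as an alternative after turning it to log2, and flags set to a score of 0 or 1 per the file headers. The authors deposited a table of combined values per gene, for which the submitters' processing notes name limma; its log2 scale was inferred from slopes of -0.97, 1.01, 0.94 and 1.01 against the scanner ratios, and its parental column had the opposite sign (medians of the 4 columns 0.05, -0.05, -0.03 and -0.02).

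Median intensities were corrected by normexp (offset 50) and normalized by loess within each array in limma 3.58.1 (R 4.3.3), with control and outlier spots at weight 0 (1 of 1296 spots of these genes). The 2 spots of a gene were averaged. A gene was tested if, in 1 or more of the conditions, both spots were well above background in all channels, which kept 5343 genes; that both spots were required, rather than 1 (5495 genes), was settled after both had been run. Symbols came from RefSeq assembly R64, which 5756 genes matched and 500 did not. One coefficient per comparison was fitted over all 8 arrays with 4 residual degrees of freedom. The code was tested on simulated data. The replicates are biological duplicates per the labels, which give them no number.

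The genes, lists and tests were chosen with earlier results of these data known. Named genes are the 6 lowest and 6 highest of each comparison, the 6 largest differences, those not called in the glycerol responses, the stalk genes, those without a paralog letter, the 8 most and 4 least different pairs, and the 3 lowest and 3 highest of each pathway list. One gene and its pair are counted in the totals but not reported here. Sequences of probes, promoters and proteins were not used here.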

Additional observations from a re-analysis of the deposited data

Results flagged for a closer look

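HMO1 was singled out because its glycerol response differed between the strains in the test of the difference itself, by -0.72 on the log2 scale (adjusted p = 0.0471, limma). This call was lost with median centring (0.105) and with processed signals (0.0501). It was also lost without any 1 of the 4 arrays. A response then rests on 1 array, so that loss cannot be read as a trait of HMO1. A set of 8 large-subunit genes was picked out because both arrays of the strain comparison lay on 1 side of 0 in glucose and both on the other side in glycerol; this difference was not tested. The change of the mutant over parental ratio from glucose to glycerol was 1.06 for RPL7A (from -0.66 to 0.41), 0.87 for RPL23B (from -0.51 to 0.36), 0.80 for RPL26A (from -0.38 to 0.42), 0.78 for RPL18B (from -0.46 to 0.32) and 0.65 for RPL29 (from -0.36 to 0.28). It was 0.22 for RPL21A and 0.10 for RPL41B, both dim, and -0.36 for RPL9A (from 0.11 to -0.24). With spike-in probes taken as 0 the difference for HMO1 was 0.065.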

How the results depend on the processing

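In the glycerol responses the counts of genes that fell stayed within 1.5 times the reported ones under every alternative run (75 to 80 in the parental strain and 71 to 80 in the mutant, and 65 to 78 and 63 to 76 with 1 array left out). The parental median was -1.98 with array median centring, -1.82 with loess without ribosomal protein spots, -1.78 with processed signals, -3.73 with spike-in probes taken as 0 and -2.45 with each spike-in probe against its own mean, a setting chosen after seeing the data, as was a filter on at least 1 spot. The mutant median was -2.72 with spike-in probes taken as 0.

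The counts between strains in glucose, between strains in glycerol and for the difference of responses were 1, 0 and 9 with median centring, 79, 7 and 19 with spike-in probes at 0, 0, 79 and 76 with relative spike-in probes, 7, 24 and 16 with a loop model over the 4 conditions (968, 732 and 1030 of all 5343 genes), 0, 0 and 0 with processed signals or at adjusted p under 0.01, and 5, 0 and 0 with only the arrays compared. Called among all 5343 genes were 111, 120 and 258 with median centring and 5301, 3697 and 370 with spike-in probes at 0. The same counts were 76, 4580 and 4183 with relative spike-in probes and 729, 88 and 11 with only the arrays compared. With processed signals they were 266, 231 and 20, with the slide row as replicate block 302, 198 and 43, and at adjusted p under 0.01 they were 77, 54 and 0. For the large-subunit genes the slide row as replicate block gave 1, 1 and 0, and 76 and 76 in the glycerol responses. The labels give no shared replicate numbers. In glucose the count was 1 with offset 0 and with the second spot, in glycerol it was 4 with the second spot, and for the difference it was 2 with the first spot and with loess without ribosomal protein spots. With 1 array left out the medians of these 3 contrasts were -0.04 to 0.10, 0.25 to 0.41 and 0.10 to 0.46. The 3 medians were -1.53, -0.45 (direction turned) and 1.04 with spike-in probes at 0 and -0.10, 1.16 and 1.35 with relative spike-in probes, and that of the difference was 0.69 with median centring. Spike-in probes at 0 put the median of all genes at -2.22, -1.40, -1.54, -0.79 and 0.79 in the 5 contrasts, and the cause was not tested.

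Signs also turned in single genes. With spike-in probes at 0, parental values were -0.72 for STB3, -1.20 for RIM15, -1.21 for RSA1, -1.57 for HMO1, -1.70 for LOC1 and -1.84 for NPA3. Mutant values were -0.45 for MSN2, -0.64 for STB3, -0.87 for RSA1, -0.95 for RIM15, -1.21 for RKM5 and -1.28 for BTT1. Between strains in glucose they were -0.58 for RPL15A, -0.89 for RPL10, -0.93 for RPL12A, -0.97 for RPL6B, -1.02 for RPL3 and -1.06 for RPL38. In glycerol they were -0.045 for RPL4B, -0.076 for RPL8A, -0.14 for RPL2A, -0.19 for RPL3, -0.20 for RPL4A, -0.20 for RPL24A, -0.72 for RPL21A, -0.73 for RPL22A, -0.74 for RPL41B and -0.76 for RPL38, and the difference for HMO1 was 0.065. With relative spike-in probes they were -0.29, -0.41 and -0.56 for HMO1, LOC1 and NPA3 in the parental strain, 0.10, 0.11, 0.15 and 0.15 for HMO1, EGD1, LOC1 and MEX67 in the mutant, 0.29, 0.57 and 0.77 for HMO1, RPL9A and RPL7B between strains in glycerol, and 0.38 for the difference for HMO1. With median centring BTT1 was at 0.091 and -0.036 and LOC1 at 0.12 in the responses, and RPL21A at -0.073 between strains in glycerol. With processed signals the RPL21 pair was at -0.32 and -0.27.

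Values near 0 turned between spots, models and arrays. In the mutant response LOC1 was at 0.0031 and MEX67 at 0.0042 in the loop model, LOC1 at 0.0029 and MEX67 at 0.13 with the second spot, EGD1 at 0.0064 and MEX67 at 0.0079 with offset 0, and MEX67 at 0.27 with array 1 alone. Between strains in glycerol RPL38 was at -0.0003 and RPL7B at 0.045 with the first spot, RPL41B at -0.053 with the second, RPL22A at -0.019 in the loop model, RPL38 at -0.042 and RPL22A at -0.14 with array 2 alone, and RPL7B from -0.15 to 0.068 over the single arrays. In the parental response RPL15B ranged from -0.38 to 0.13 and RKM5 from -0.25 to 0.0075 over the single arrays, and EGD1 was at 0.15 with array 2 alone. Dim probes (RPL7B, RPL21A, RPL41A) limit the pairs they belong to, and 2 arrays per comparison limit the rest.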
